A study of Mus musculus with 12 samples.

Results

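The maturation of the kidney without functional Pkd1 was followed between 2 embryonic ages, E17.5 and E14.5, in Pkd1-/- embryos. Of the 12 arrays of the series, 6 carried Pkd1-/- kidney RNA and were chosen by their labelled genotype and age alone: 3 at E17.5 (arrays 12, 40 and 42) and 3 at E14.5 (arrays 35, 59 and 65). The other 6 arrays carried kidneys of wild-type (WT) littermates, 3 at each age, and serve only to show where the change with age differed. All embryos were of the CD-1 strain, untreated, and each array held total RNA from 1 pair of kidneys on an Illumina mouse whole-genome BeadChip. A probe on this chip is read from many beads, which give it an intensity and a detection p-value against negative control beads. Mutants are null for Pkd1 in every cell rather than in one nephron segment, and whole kidneys were measured. Mutant kidneys of this kind form cysts between these ages, so age and cyst growth cannot be told apart within the mutants.

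The kidney forms when a ureteric bud grows into mesenchyme and branches. Mesenchymal progenitors that cap the bud tips renew themselves or turn into epithelial vesicles, which lengthen and pattern into podocytes, proximal tubule, loop of Henle and distal tubule, while the bud becomes the collecting duct. A stroma around them supplies signals and later gives rise to pericytes and smooth muscle. Pkd1 encodes polycystin-1, a large membrane protein of the primary cilium and of cell contacts in tubule epithelium. Since RNA came from whole organs, fewer cells of a type and less RNA per cell cannot be told apart in any value below.

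Detection was even over the arrays, with 42.8 to 44.8% of the 45281 probes at a detection p under 0.05. The labelled tissue was borne out by defining kidney markers, since Lhx1, Podxl, Slc12a1, Lrp2, Cdh5 and Foxd1 were detected on all 6 mutant arrays. Of the other markers chosen for this check, Pax2 was detected on too few arrays of the series to be tested. Wt1 had no probe under its symbol. Xist, the transcript of the inactive X chromosome, was detected on array 35 at E14.5 (log2 intensity 12.40) and on no other mutant array, so 1 of the 6 mutant arrays, at E14.5, differed from the rest in sex. Among WT arrays it was likewise detected on 1, E14.5 WT array 57 (12.10). Mutant array 35 also had the highest mean over 12 skeletal muscle genes, 7.28 against 6.58 and 6.73 on the other E14.5 mutant arrays. E17.5 WT array 2 stood apart by its liver genes, with a mean log2 intensity over 12 genes of 6.58 to 6.85 on the E17.5 mutant arrays, 11.21 on this WT array and 7.09 and 7.79 on the other E17.5 WT arrays. Pkd1 itself was read by 1 probe, at log2 intensities of 7.63, 7.78 and 7.84 in E17.5 mutants and 7.81, 7.38 and 7.23 in E14.5 mutants. The ages overlapped (log2 fold change 0.28 ± 0.22, SE, adjusted p = 0.33 from limma). In WT kidneys the probe read 6.80, 6.92 and 7.61 at E17.5 and 6.36, 6.84 and 6.82 at E14.5, so at both ages every mutant array lay above every WT array, and genotypes at one age were not tested against each other here. The signal thus runs against the labelled loss of Pkd1. Where the probe lies relative to the deleted part is not given in the sources used here, so it does not check the labels, and mutant below means the arrays labelled so.

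Mutant kidneys changed broadly over these 3 days. Of 14882 features tested, 11616 of them named genes, 6404 (43.0%) differed between E17.5 and E14.5 mutants at a limma adjusted p under 0.05, which is the meaning of "called" below. The directions were nearly balanced, with 3227 higher (21.7%) and 3177 lower (21.3%) at E17.5. Large changes were mostly rises: of 1299 called by at least 2-fold (8.73%), 906 were higher (6.09%) and 393 lower (2.64%). At an unadjusted p under 0.05 there were 7585 (51.0%), and in 8348 (56.1%) the arrays of one age did not overlap with those of the other. Correlations over all tested features were 0.986 to 0.994 among the E17.5 mutant arrays, 0.990 to 0.992 among the E14.5 mutant arrays and 0.943 to 0.959 between the ages. Leaving out array 35 gave 5741 calls, 1432 of them by at least 2-fold. In this account log2 intensities are normalized probe levels, fold changes are E17.5 over E14.5 mutants with their SE (n = 3 each), and adjusted p-values are from limma over all features tested.

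Genes of the nephron progenitors went down as a group. Of 16 tested progenitor genes 10 fell and 1, Tmem100, rose, with a median log2 fold change of -0.61 against -0.02 over all features. Leaving out array 40 or array 42 gave 8 falls. Six2, the factor that keeps progenitors from differentiating, read 6.58, 6.84 and 6.77 in E17.5 mutants and 7.64, 7.72 and 8.22 in E14.5 mutants. Every E17.5 array lay below every E14.5 array, and Six2 fell 2.19-fold (log2 fold change -1.13 ± 0.17, adjusted p = 0.000381). Meox2, a homeobox gene of the cap mesenchyme, read 8.63, 8.39 and 8.52 in E17.5 mutants and 10.19, 10.13 and 10.29 in E14.5 mutants, a 3.23-fold fall with no overlap. Eya1, a cofactor of Six2, fell 2.22-fold and Cited1, a mark of the least committed progenitors, fell 1.70-fold. Gdnf, the growth factor by which the mesenchyme draws the bud, fell by a smaller step of 0.43 ± 0.11 on the log2 scale. Sall1, a zinc finger factor of the same cells, was not called by its brighter probe (-0.08 ± 0.10, adjusted p = 0.526). Its other probe gave -0.43 (limma adjusted p = 0.0114 over the kept probes).

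Of 10 tested genes of the branching bud tip 3 fell and none rose. The 30% that fell is near the 21.3% over all features, and either of arrays 59 and 12 left out gave 1 fall. Gfra1, the Gdnf co-receptor, fell by 0.60 ± 0.14 on the log2 scale (adjusted p = 0.0058), while its signalling partner Ret was not called (-0.37 ± 0.16, adjusted p = 0.0807). The group of early nephron and Notch genes had a median of 0.05, with 1 rise (2 without E17.5 WT array 41), 3 falls and 9 genes not called. Its share of falls, 23.1%, is near that over all features. Jag1, a Notch ligand of the forming proximal segment, rose by 0.78 ± 0.16, whereas Hes5, a Notch target, fell by 0.78 ± 0.20. Lhx1, Wnt4 and Pax8, which act in the renal vesicle, had log2 fold changes of -0.11, 0.31 and 0.05 and were not called.

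Stromal genes mostly fell. Of 14 stromal genes 8 fell and 2 rose (median log2 fold change -0.42), and array 42 left out gave 5 falls. Foxd1, the defining factor of the cortical stroma, read 9.29, 9.34 and 9.43 in E17.5 mutants and 10.43, 10.35 and 10.51 in E14.5 mutants. The groups were apart, with a 2.11-fold fall (adjusted p = 0.000236). Lum, a collagen-binding proteoglycan, fell 3.52-fold and Dlk1, an imprinted Notch-related protein of immature mesenchyme, fell 2.43-fold. Array 35 had the highest E14.5 level of both, and without it the falls were 1.51 and 0.91 on the log2 scale, still called. Rarb, a retinoic acid receptor of the stroma, fell by 0.90 ± 0.13 by its brightest probe. A nearly equally bright probe gave -0.21 (limma adjusted p = 0.0824 over the kept probes) and the dimmest gave -0.90. In the other direction Penk, a marker of medullary stroma, rose 2.01-fold and Pdgfrb, the pericyte receptor, rose by 0.58 ± 0.14.

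Genes of cell division mostly fell. All of the 23 called among 30 DNA replication genes were lower at E17.5, as were all of the 15 called among 22 mitosis genes, with medians of -0.59 and -0.52. Rfc3, a subunit of the clamp loader, read 6.96, 6.84 and 6.77 in E17.5 mutants and 8.16, 8.07 and 8.18 in E14.5 mutants, which is a 2.43-fold fall. Mcm3, part of the replicative helicase, read 8.33, 8.59 and 8.71 in E17.5 mutants and 9.53, 9.80 and 9.70 in E14.5 mutants, 2.19-fold lower. Cdk1, the kinase that drives entry into mitosis, read 11.02, 10.97 and 11.03 in E17.5 mutants and 11.90, 11.73 and 11.86 in E14.5 mutants. These 3 genes did not overlap between the ages, and their steps were large beside the spread within each age. Pcna, the replication clamp, was not called (-0.53 ± 0.29), nor was Plk1, a mitotic kinase that read 6.82 on array 12 and 10.93 and 10.87 on the other E17.5 mutant arrays. Cell cycle brakes moved both ways, with 4 of 12 higher and 3 lower, near the 21.7% and 21.3% over all features. Cdkn1a, an inhibitor of cyclin-dependent kinases, read 10.30, 9.78 and 9.82 in E17.5 mutants and 8.75, 8.68 and 8.82 in E14.5 mutants. It rose 2.32-fold, and Rb1, the retinoblastoma protein, rose 2.21-fold. The inhibitors Cdkn1c and Cdkn2d and the Rb1 relative Rbl1 fell by 0.24, 0.27 and 0.33 on the log2 scale, with no fall called without array 35 or array 59 and 1 without array 65, 12 or 40.

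Replication genes are classically switched on by E2F factors in late G1, and mitosis genes later through an element called CHR. Promoter sequences from RefSeq (build GRCm38.p6, 250 bases before to 50 after the start) were therefore read for letters of these elements on both strands. An E2F match, TTTCCCGC, TTTGGCGC or TTTCGCGC, stood in 11 of 31 promoters (35.5%) of the 26 replication genes that matched of 30, against 606 of all 32851 promoters (1.84%). A CHR match, TTTGAA, stood in 18 of 20 promoters (90%) of the 18 mitosis genes that matched of 22, against 5878 of all (17.9%). The lists crossed over little: mitosis promoters held E2F letters in 1 of 20 (5%) and replication promoters held CHR letters in 4 of 31 (12.9%). Below are stretches of 60 bases from the promoters of the 4 called members of each list with the largest falls among those that hold the letters upstream of the start, with the matched letters in capitals, and a run of capitals can hold overlapping matches. The first 4 are replication genes with E2F letters and the last 4 are mitosis genes with CHR letters. The stretches end at different distances from the start: the match lies 2 to 33 bases before it in Rfc3, Gins3, Cdk1, Top2a and Kif11, and farther upstream in Cdc6 (130 bases), Mcm5 (141 bases) and Ect2. A match describes the sequence only and shows neither binding nor a cause of the fall.
Rfc3 (chr5:151651209-151651268, minus strand): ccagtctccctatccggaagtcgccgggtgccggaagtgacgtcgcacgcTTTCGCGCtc
Cdc6 (chr11:98907987-98908046, plus strand): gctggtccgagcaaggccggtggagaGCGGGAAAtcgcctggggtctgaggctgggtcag
Gins3 (chr8:95633492-95633551, plus strand): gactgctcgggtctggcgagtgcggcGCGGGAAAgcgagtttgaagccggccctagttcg
Mcm5 (chr8:75109334-75109393, plus strand): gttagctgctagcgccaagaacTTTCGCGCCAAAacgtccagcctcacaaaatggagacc
Ect2 (chr3:27153960-27154019, minus strand): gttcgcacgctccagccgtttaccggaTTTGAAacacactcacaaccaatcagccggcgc
Cdk1 (chr10:69352913-69352972, minus strand): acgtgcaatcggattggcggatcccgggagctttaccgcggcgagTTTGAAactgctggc
Top2a (chr11:99024190-99024249, minus strand): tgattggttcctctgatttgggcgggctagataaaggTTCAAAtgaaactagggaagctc
Kif11 (chr19:37376322-37376381, plus strand): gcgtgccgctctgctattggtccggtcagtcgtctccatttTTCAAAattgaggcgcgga

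Of the genes shown, Rfc3 fell by 1.28, Cdc6, which loads the helicase, by 0.97, Gins3, a helicase cofactor, by 0.86 and Mcm5 by 0.79 on the log2 scale. Ect2, which places the cleavage furrow, fell by 1.42, Cdk1 by 0.83, Top2a, the topoisomerase that untangles chromosomes, by 0.75 and Kif11, a spindle motor, by 0.61.

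Proximal tubule genes rose almost throughout. Of 31 tested, 27 rose and none fell, 23 of them by at least 2-fold, and the median log2 fold change was 2.08. The number that rose was 26 to 29 with any single array left out. Lrp2, the endocytic receptor megalin, read 13.33, 13.39 and 13.36 in E17.5 mutants and 10.58, 10.21 and 10.35 in E14.5 mutants. Its partner receptor Cubn read 9.52, 9.36 and 9.40 in E17.5 mutants and 6.23, 5.91 and 5.76 in E14.5 mutants. Both rose far beyond the spread within an age, by 2.98 ± 0.23 and 3.46 ± 0.35. Slc34a1, the sodium-phosphate cotransporter, read 13.05, 12.93 and 12.85 in E17.5 mutants and 9.86, 9.65 and 9.92 in E14.5 mutants, and rose by 3.13 ± 0.56. Fbp1, an enzyme of glucose synthesis, read 9.99, 10.07 and 10.55 in E17.5 mutants and 6.10, 5.71 and 5.65 in E14.5 mutants. Slc22a6, the organic anion transporter, read 10.79, 10.42 and 10.62 in E17.5 mutants and 6.65, 6.39 and 6.69 in E14.5 mutants. With rises of 4.38 and 4.03 these were the top members of the list, and the other probe of Slc22a6 gave 1.99. The 4 genes not called were Miox, G6pc, Slc13a3 and Slc6a19, with log2 fold changes of 0.11 to 0.63.

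**Figure D1:**
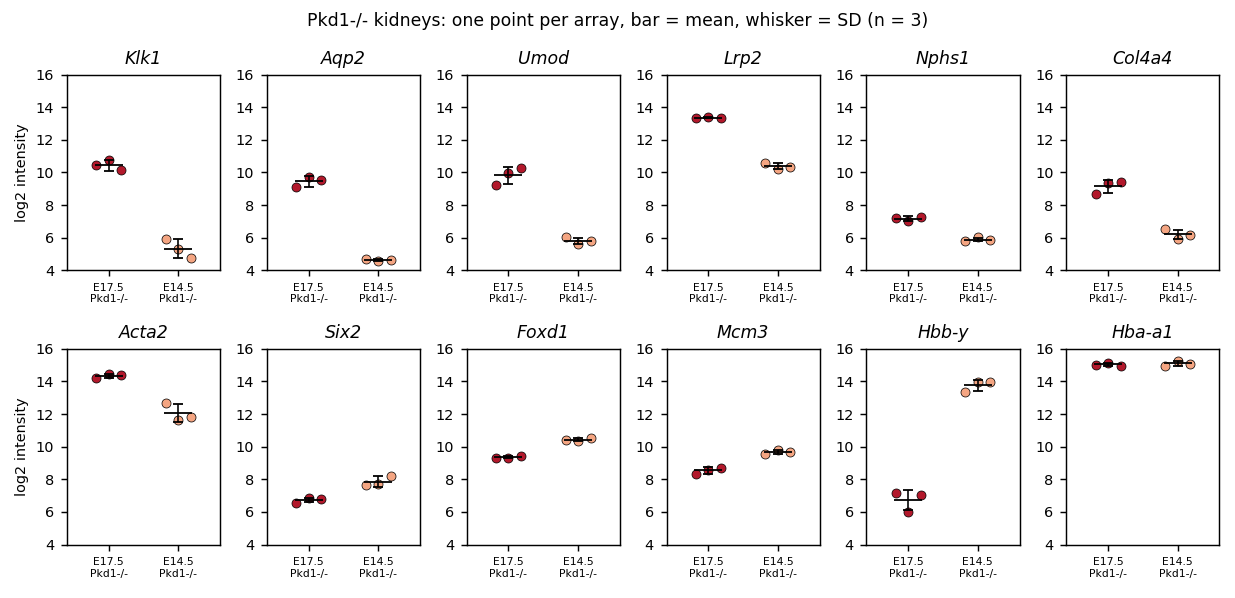
Log2 intensity (vertical axis, 4 to 16) of 12 genes in E17.5 Pkd1-/- kidneys (left) and E14.5 Pkd1-/- kidneys (right), 1 point per array, with the mean and SD of 3 arrays. Genes of tubules, glomeruli and smooth muscle lay higher at E17.5, Six2, Foxd1, Mcm3 and Hbb-y lay lower, and Hba-a1 lay between 14.95 and 15.26 on all 6 arrays, near the top of the scale.

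The later nephron followed the same course. In the loop of Henle 8 of 13 genes rose and none fell (median 1.74). Umod, the uromodulin of the thick ascending limb, read 9.25, 9.99 and 10.27 in E17.5 mutants and 6.02, 5.61 and 5.77 in E14.5 mutants. It rose 4.04 ± 0.36 on the log2 scale with no overlap. Slc12a1, the cotransporter blocked by loop diuretics, read 12.07, 12.32 and 12.37 in E17.5 mutants and 10.29, 9.91 and 10.06 in E14.5 mutants. Its rise was 2.17 ± 0.36 by the brightest of 6 probes, which ranged from 0.69 to 2.17. Cldn16, a tight junction protein that lets magnesium through, rose by 1.91 ± 0.28, and Egf, made by the distal nephron, was not called (0.17 ± 0.23).

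In the distal convoluted and connecting tubule 7 of 11 genes rose and none fell. Klk1, the kallikrein of the connecting tubule, read 10.43, 10.76 and 10.12 in E17.5 mutants and 5.90, 5.29 and 4.73 in E14.5 mutants. This was the largest fitted rise among named genes, 34.9-fold (5.13 ± 0.49, adjusted p = 2.12e-05). At E14.5 Klk1 was detected on 1 of the 3 arrays, so its size depends on the background, and close paralogs such as Klk1b26 may share its probe signal. Kl, the Fgf23 co-receptor Klotho, averaged 10.22 ± 0.22 in E17.5 mutants and 5.79 ± 0.35 in E14.5 mutants (SD), a rise of 4.43 ± 0.46. Where a gene was detected on no array of the dimmer age, its fold is given as a lower bound against the lowest level detected on those arrays. Where changes are set against those in WT kidneys, fitted log2 changes are given instead. On that basis Pvalb, a calcium buffer of the distal convoluted tubule, was at least 3.54-fold higher at E17.5 (7.33 ± 0.49 in E17.5 mutants and 4.82 ± 0.09 in E14.5 mutants, mean ± SD).

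Collecting duct genes of both cell types rose. Of 12 principal cell genes 11 rose, and of 11 intercalated cell genes 9 rose, with none lower in either list. Aqp2, the vasopressin-regulated water channel, read 9.10, 9.72 and 9.50 in E17.5 mutants and 4.72, 4.58 and 4.64 in E14.5 mutants. It was at least 15.4-fold higher at E17.5, since no E14.5 mutant array detected it. Scnn1a, a subunit of the epithelial sodium channel, was at least 3.16-fold higher, and the other subunits Scnn1b and Scnn1g, already detected at E14.5, rose by 1.67 and 1.05. Slc4a9, an anion exchanger of intercalated cells, averaged 7.18 ± 0.09 in E17.5 mutants and 5.10 ± 0.34 in E14.5 mutants (SD). Foxi1, the factor that specifies intercalated cells, was at least 1.83-fold higher and Car12, a carbonic anhydrase, rose by 2.00 ± 0.19. Slc4a1, the exchanger shared by intercalated cells and red cells, was not called (-0.81 ± 0.33). Urothelial genes rose too, 6 of 9 with none lower, among them Upk2, a plaque protein of the bladder and renal pelvis lining, by 3.19 ± 0.51.

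Transcription factors of the nephron rose as well. Of 17 tested 14 rose and none fell, 9 of them by at least 2-fold. Hnf4a, the nuclear receptor of proximal tubule maturation, read 11.59, 11.31 and 11.37 in E17.5 mutants and 9.83, 9.99 and 9.90 in E14.5 mutants. Its 1.52 ± 0.22 rise compares with 2.96 ± 0.32 for Nr1h4, the bile acid receptor FXR, and 2.72 ± 0.28 for Vdr, the vitamin D receptor. Esrrb, an orphan nuclear receptor, was at least 4.50-fold higher at E17.5. Tfcp2l1, a factor of the collecting duct, rose by 1.09 ± 0.11, and Ppargc1a, the coactivator of mitochondrial genes, by 0.66 ± 0.14.

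Podocyte genes rose in part, and Col4a4, Col4a3 and Lama5, genes of the glomerular basement membrane, were higher at E17.5. Of 17 podocyte genes 10 rose, 1 fell and 6 were not called, with a median of 0.68, and the fall was lost without array 35, array 59 or array 42. Nphs1, the nephrin of the filtration slit, averaged 7.16 ± 0.14 in E17.5 mutants and 5.88 ± 0.12 in E14.5 mutants (SD), a 1.27 ± 0.23 rise. Synpo, an actin-binding protein of foot processes, rose by 1.53 ± 0.21. The podocyte factor Tcf21 and the slit adaptor Cd2ap were not called (0.11 ± 0.12 and 0.04 ± 0.14). Col4a4, a chain of the mature glomerular collagen IV, read 8.68, 9.32 and 9.43 in E17.5 mutants and 6.52, 5.92 and 6.16 in E14.5 mutants. It rose by 2.94 ± 0.26, and Col4a3, a chain of the same network, was at least 2.02-fold higher. Lama5, the laminin chain of the mature membrane, read 10.35, 10.36 and 10.30 in E17.5 mutants and 8.58, 8.88 and 8.49 in E14.5 mutants. Over all 20 basement membrane genes 14 rose and none fell. Col4a1 and Col4a2, the chains found in basement membranes of all tissues, rose by 0.97 ± 0.09 and 1.11 ± 0.12, against 0.53 ± 0.12 for Col4a5. The other probe of Col4a5 gave 0.23.

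**Figure D2:**
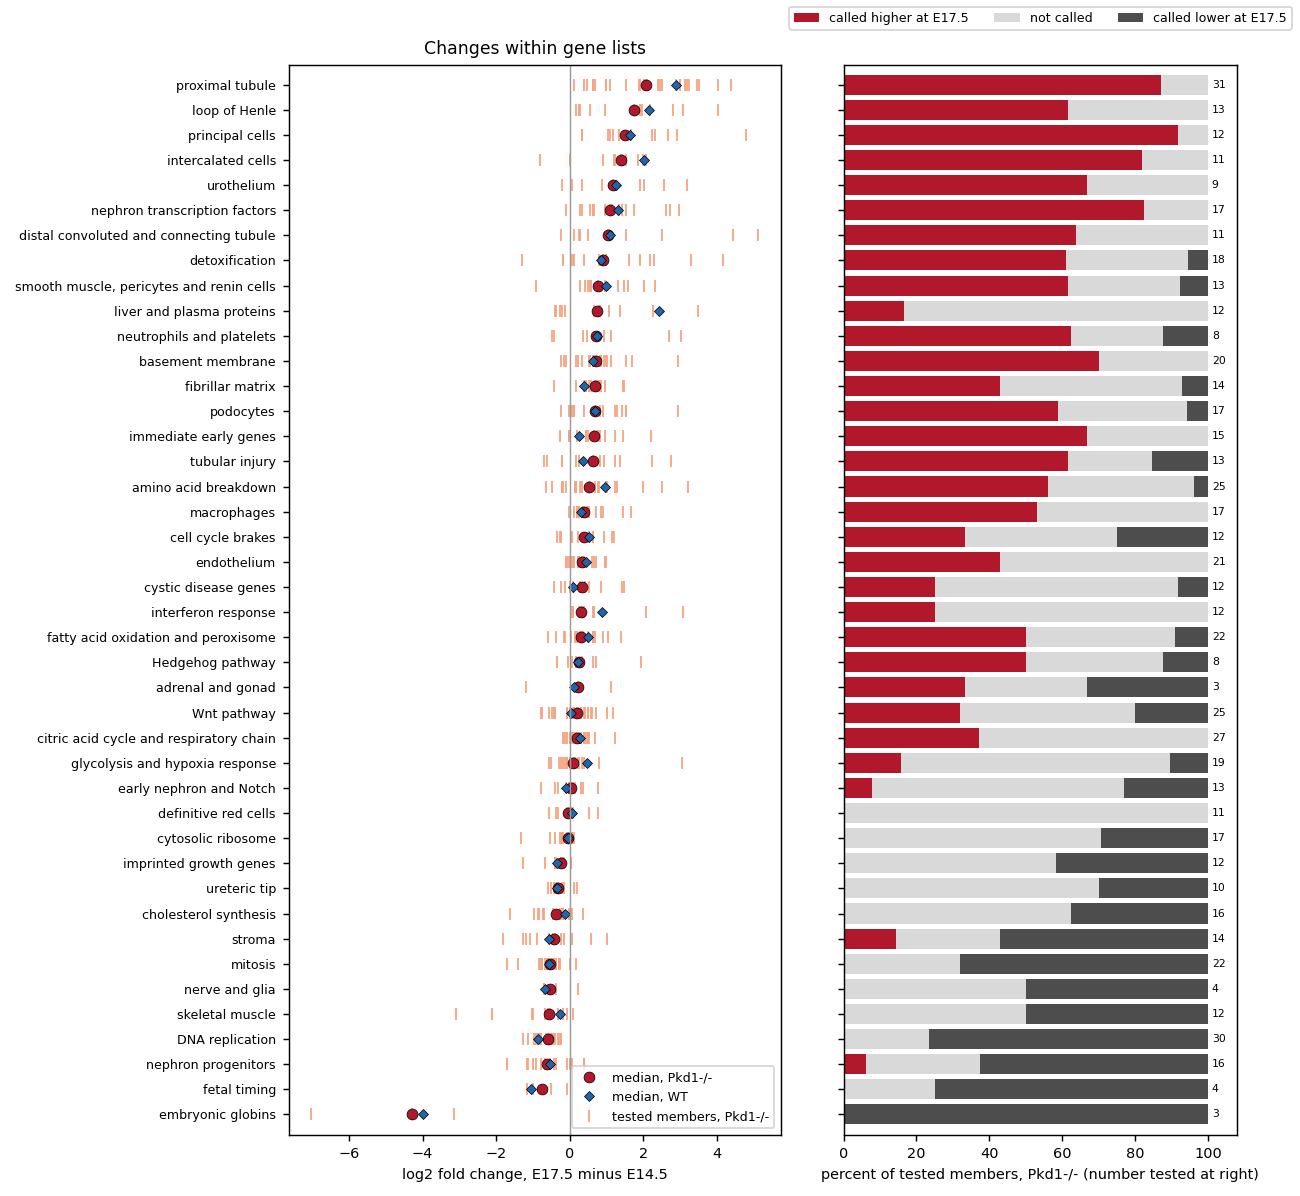
Left, log2 fold change (E17.5 minus E14.5) of the tested members of 42 gene lists in Pkd1-/- kidneys (ticks), with the median in Pkd1-/- (circles) and in WT (diamonds). Right, the percent of tested members called higher, not called or called lower in Pkd1-/- kidneys, with the number tested; tubule and collecting duct lists lie at the top (median 2.08 for the proximal tubule) and embryonic globins at the bottom (-4.28).

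Vessel wall and blood vessel genes rose moderately. Of 13 smooth muscle, pericyte and renin cell genes 8 rose and 1, Des, fell. Acta2, smooth muscle actin, read 14.20, 14.43 and 14.42 in E17.5 mutants and 12.67, 11.65 and 11.80 in E14.5 mutants. Array 35 had the highest E14.5 level, and the ages did not overlap (2.31 ± 0.37, adjusted p = 0.000493). Myh11, smooth muscle myosin, read 8.11, 8.83 and 8.23 in E17.5 mutants and 7.51, 5.80 and 5.84 in E14.5 mutants, with array 35 again the highest. Of 21 endothelial genes 9 rose and none fell, with a median of 0.34 and no rise of 2-fold. Eng, a TGF-beta co-receptor, rose by 0.99 ± 0.22 and Ehd3, a marker of glomerular endothelium, by 0.97 ± 0.25. The pan-endothelial markers Pecam1 and Tek were not called (-0.03 ± 0.12 and -0.09 ± 0.16). The probes of Pecam1 differed, since its dimmer probe gave 0.36 (limma adjusted p = 0.0366 over the kept probes).

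The deepest called falls were in embryonic globins. Hbb-y, an embryonic beta-type globin, read 7.16, 6.01 and 7.04 in E17.5 mutants and 13.37, 13.99 and 13.94 in E14.5 mutants. That is a 131-fold fall (log2 fold change -7.03 ± 0.44, adjusted p = 1.91e-06), and both probes of the gene gave nearly the same value (-7.03 and -7.01). Hba-x, the embryonic alpha-type globin zeta, read 6.03, 5.05 and 5.20 in E17.5 mutants and 9.55, 9.75 and 9.85 in E14.5 mutants. Hbb-bh1 was at least 5.67-fold lower at E17.5 by the brighter probe, while its other probe gave -0.16. Of 11 definitive red cell genes limma called none, and at an unadjusted p under 0.05 there were 1 higher and 2 lower. Hba-a1, adult alpha globin, lay between 14.96 and 15.16 in E17.5 mutants and between 14.95 and 15.26 in E14.5 mutants. These levels are the top of the scale, where a probe may no longer follow a change. Globins are made by red cells, so these values describe the blood held in the kidneys.

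Resident and circulating immune cell genes rose in part. Of 17 macrophage genes 9 rose and none fell, and 5 rose with array 65 or array 12 left out. Csf1r, the receptor that macrophages depend on, read 8.39, 8.27 and 8.70 in E17.5 mutants and 7.13, 6.95 and 6.93 in E14.5 mutants, a rise of 1.45 ± 0.12. The microglia and macrophage marker Cx3cr1 and the pan-macrophage marker Adgre1 were not called (0.11 ± 0.13 and 0.20 ± 0.17). Of 8 neutrophil and platelet genes 5 rose (3 without array 12) and 1 fell, with S100a9 and S100a8, the subunits of calprotectin, up by 3.03 ± 0.43 and 2.69 ± 0.42. Of 12 interferon response genes 3 rose (25%, near the 21.7% over all features), led by Ifit3 (3.08 ± 0.38), and 8 rose without array 35.

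Metabolic genes moved mainly upward, apart from those of cholesterol synthesis and glycolysis. Over all features 21.7% rose and 21.3% fell. The share that rose was 50% for fatty acid oxidation and peroxisomes and 37.0% for the citric acid cycle and respiratory chain. It was 56% for amino acid breakdown, 61.1% for detoxification and 15.8% for glycolysis and hypoxia. Of cholesterol synthesis genes 37.5% fell. Of 22 genes of fatty acid oxidation and peroxisomes 11 rose and 2 fell, with no fall called without array 35, 59, 65, 12, 40 or E14.5 WT array 58, and 1 without array 42, E14.5 WT array 57 or E17.5 WT array 38. Acadm, the medium-chain acyl-CoA dehydrogenase, read 13.06, 13.17 and 13.12 in E17.5 mutants and 11.87, 11.61 and 11.71 in E14.5 mutants. Of 27 genes of the citric acid cycle and respiratory chain 10 rose and none fell. Without array 42 only 5 rose, a share no longer above that over all features. The steps were small apart from Ogdh, the oxoglutarate dehydrogenase (1.22 ± 0.17). Amino acid breakdown had 14 rises and 1 fall among 25 genes, with Hgd, of tyrosine breakdown, up by 3.22 ± 0.23 by one probe and 0.75 by the other. Detoxification had 11 rises and 1 fall among 18, with Ugt1a6a, a glucuronosyltransferase, up by 3.29 ± 0.20 and Gstp1, a glutathione transferase, down (-1.30 ± 0.25). Cholesterol synthesis went the other way, with 6 falls and no rise among 16 genes, Nsdhl (-1.62 ± 0.31, brightest of 4 probes) and Fdps (-0.83 ± 0.12) among them. Glycolysis and hypoxia genes were mostly not called, 14 of 19. The exception by size was Ndrg1, a stress-responsive gene, at 11.83, 11.57 and 11.31 in E17.5 mutants and 8.89, 8.39 and 8.28 in E14.5 mutants.

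Genes of fetal timing fell: 3 of 4 tested did so. Lin28b, which blocks let-7 maturation, was at least 1.70-fold lower and Hmga2, a chromatin protein of immature cells, at least 1.38-fold lower at E17.5. Igf2bp3, a fetal RNA-binding protein, fell by 0.52 ± 0.11, but Igf2bp1 was not called (-0.07 ± 0.15). Igf2 itself, the fetal growth factor, read 15.10, 15.02 and 15.07 in E17.5 mutants and 15.13, 14.93 and 15.07 in E14.5 mutants, near the top of the scale.

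Genes often read as signs of tubular injury also moved with age, 8 of 13 higher and 2 lower. These are shares of 61.5% and 15.4%, beside 21.7% and 21.3% over all features. In WT kidneys 4 rose and 2 fell, and the list median was 0.64 in mutants and 0.36 in WT. No member was called for a difference (median difference 0.26). Lcn2, the lipocalin NGAL, averaged 7.63 ± 0.14 in E17.5 mutants and 4.87 ± 0.13 in E14.5 mutants (SD), at least 4.38-fold higher. Its change was 2.76 in mutants and 3.14 in WT kidneys (adjusted p of the difference 0.61). Vim, an intermediate filament of mesenchyme, and Timp1, a protease inhibitor, fell by 0.69 ± 0.12 and 0.61 ± 0.11. Of 15 immediate early genes 10 rose and none fell, with Ier3 at 9.90, 10.10 and 9.87 in E17.5 mutants and 7.87, 7.77 and 7.62 in E14.5 mutants. Of 12 cystic disease genes 3 rose and 1 fell, shares of 25% and 8.33% against 21.7% and 21.3% over all features, which is no result about the list. Without E17.5 WT array 2 the rises were 5, without array 59 there were 2 rises and 2 falls, and without array 65 the fall was lost. Glis3, a factor whose loss causes cysts, averaged 7.95 ± 0.05 in E17.5 mutants and 6.53 ± 0.26 in E14.5 mutants (SD). Bicc1, an RNA-binding protein with the same property in mice, rose by 0.84 ± 0.16. Of 14 fibrillar matrix genes 6 rose and 1 fell. The rises were 9 without array 35 and 4 without array 59 or array 65, and the fall was kept only without array 35 or array 42 among the leave-outs. Eln, elastin, rose by 1.48 ± 0.26.

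Signalling genes moved both ways. The Wnt pathway had 8 rises and 5 falls (3 without array 59) among 25 genes, shares of 32% and 20% beside 21.7% and 21.3% over all features, with Sfrp1, a secreted Wnt antagonist, up by 1.16 ± 0.18 and Wnt7b, a ligand of the collecting duct, up by 1.02 ± 0.15. Lgr5, a receptor that amplifies Wnt signals, fell by 0.76 ± 0.17, and Axin2, a target gene read as a measure of the pathway, was not called (0.22 ± 0.12). Of 8 Hedgehog genes 4 rose (50%) and 1 fell (12.5%). Ihh, a ligand made by the proximal tubule, rose by 1.93 ± 0.18, Shh was not called (0.05 ± 0.14), and Gli3, which turns targets off, fell by 0.36 ± 0.09.

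By the size of the fitted change, the 20 top rises included, beside tubule genes already described, Gsdmc3, a gasdermin (4.70 ± 0.55), and Spp2, a secreted phosphoprotein (4.58 ± 0.70). Several were detected on no E14.5 mutant array: Serpina6, the corticosteroid-binding globulin, was at least 15.6-fold higher, Psca, a membrane protein of epithelia, at least 14.6-fold and Nat8, an acetyltransferase of the kidney, at least 13.5-fold. Some of these genes are also made in liver. The mean over 12 liver and plasma protein genes was 6.58 to 6.85 in E17.5 mutants and 5.68 to 6.23 in E14.5 mutants, with 2 of the 12 called higher, Ttr (3.49 ± 0.59) and Afp (2.27 ± 0.57), or 4 without E17.5 WT array 2. Ahsg, a liver protein, was detected on no E17.5 mutant array and Alb did not pass the detection filter. The part of these liver transcripts in the rises was not tested.

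Among the 20 top falls after the globins were Ebf3, a helix-loop-helix factor, and Crabp1, a carrier of retinoic acid. Ebf3 read 7.81, 7.57 and 7.41 in E17.5 mutants and 10.33, 9.87 and 10.06 in E14.5 mutants, and Crabp1 read 7.12, 6.70 and 6.97 in E17.5 mutants and 9.20, 9.23 and 9.20 in E14.5 mutants. Both were apart between the ages, by -2.49 ± 0.24 and -2.28 ± 0.20. The same set held muscle genes. Myl1, a myosin light chain of skeletal muscle, read 5.18, 5.61 and 4.80 in E17.5 mutants and 9.49, 7.20 and 8.20 in E14.5 mutants. It fell by 3.10 ± 0.63, and by 2.50 without array 35 (adjusted p = 0.00805). Over the skeletal muscle list 6 of 12 genes fell, or 3 without array 35 or array 42, and the mean level was 5.90 to 6.17 in E17.5 mutants and 6.58 to 7.28 in E14.5 mutants. Acta1, skeletal actin, was at least 2.77-fold lower, a call lost without array 35 (adjusted p = 0.0720), and the part of muscle tissue in the other falls was not tested.

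Maturation in mutants was set against that in WT kidneys, E17.5 over E14.5 in each, to ask where it differed. The 2 contrasts share no arrays but share the estimate of spread for each feature, so calls in both are not independent. Of the 6404 features called in mutants, 4763 were called in WT in the same direction, which is 74.4% of the mutant calls and 73.4% of the 6491 calls in WT (43.6%; 20.2% higher and 23.5% lower), and 12 were called in opposite directions. Across features the changes correlated with r = 0.879 (rho = 0.841, a description over 14882 features that are not independent). The test of the difference between the changes called 26 features (0.175%), 9 more positive in mutants (0.0605%) and 17 more negative (0.114%). Without E17.5 WT array 2 it called 21. Being called in one genotype only was thus rarely a tested difference: of 1629 features called in mutants only, 1 was called for the difference, and of 1716 called in WT only, 7 were.

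**Figure D3:**
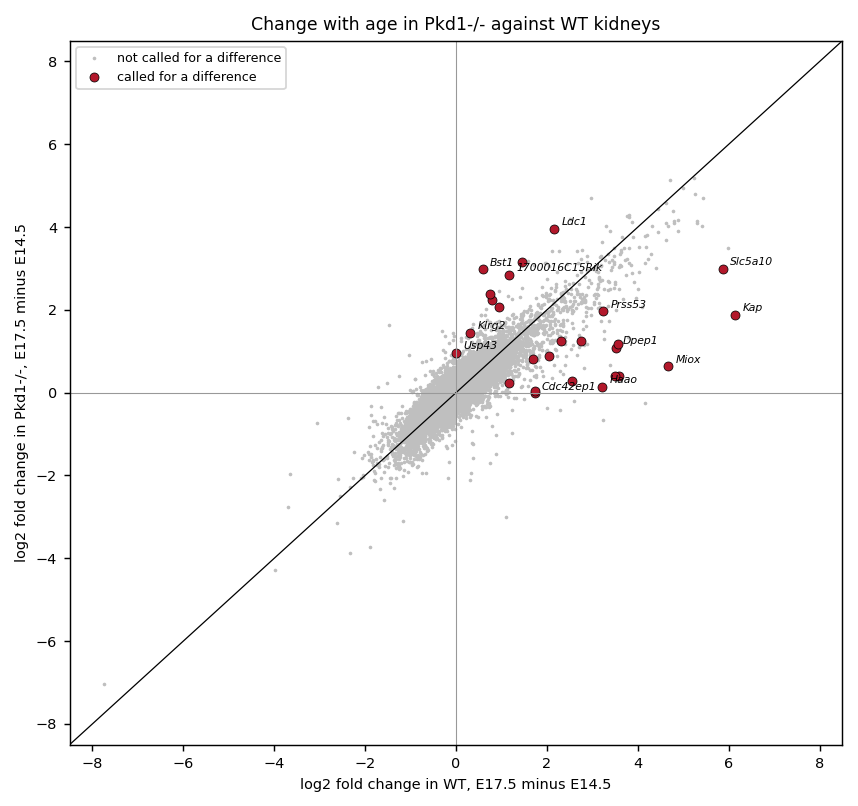
Log2 fold change (E17.5 minus E14.5) of each of the 14882 features in Pkd1-/- kidneys (vertical) against WT kidneys (horizontal), with the line of equal change and the 26 features called for a difference in red. Most points follow the line, and the red points below it, such as Kap, Miox and Haao, changed less in Pkd1-/- than in WT kidneys.

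Genes of proximal tubule metabolism led the 17 that were more negative in mutants. Miox, the myo-inositol oxygenase, read 5.47, 5.45 and 5.36 in E17.5 mutants and 4.71, 4.80 and 4.87 in E14.5 mutants. In WT kidneys it read 10.38, 9.38 and 9.14 at E17.5 and 5.44, 4.71 and 4.77 at E14.5. Its change was 0.63 in mutants and 4.66 in WT, a difference of -4.03 ± 0.39 (adjusted p = 0.000687). Miox, G6pc and Haao were detected on no E14.5 array of either genotype, so the sizes of their fitted changes depend on the background. Without a further background correction the call was lost for Miox (-4.69, adjusted p = 0.419). G6pc, the last step of glucose release, changed by 0.39 in mutants and 3.49 in WT (difference -3.10 ± 0.31), and without E17.5 WT array 2 the differences for Miox and G6pc were -3.66 and -2.81, both still called. Haao, of tryptophan breakdown, read 4.73, 4.89 and 4.68 in E17.5 mutants and 4.63, 4.63 and 4.59 in E14.5 mutants and was detected on no mutant array. At E17.5 it read 7.66, 7.66 and 8.12 in WT kidneys and at E14.5 4.70, 4.56 and 4.52 (difference -3.07 ± 0.18, adjusted p = 8.07e-06). Without E17.5 WT array 2 Haao passed detection on too few arrays to be tested.

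Other members rose in mutants but by less. Slc5a10, a sugar transporter, read 8.29, 7.74 and 7.05 in E17.5 mutants, 4.75, 4.76 and 4.61 in E14.5 mutants, 10.87, 10.55 and 10.69 in E17.5 WT kidneys and 5.27, 4.59 and 4.65 in E14.5 WT kidneys. Its change was 2.99 in mutants and 5.87 in WT, a difference of -2.88 ± 0.37. Slc5a10, Dpep1, Kap and Ctsc were detected on no E14.5 array of either genotype, so the sizes of their fitted changes depend on the background. Dpep1, a dipeptidase of the brush border, changed by 1.09 in mutants and 3.51 in WT. Without a further background correction neither Slc5a10 (-1.65, adjusted p = 0.717) nor Dpep1 (-1.36, adjusted p = 0.623) was called. Kap, an androgen-regulated kidney protein, changed by 1.88 in mutants and 6.14 in WT (difference -4.27 ± 0.67, adjusted p = 0.029), but its E17.5 mutant arrays spread from 4.99 to 7.61 and the call was lost in 14 of 23 alternatives, 10 of them with 1 array left out (adjusted p = 0.0941 without E17.5 WT array 2). Ctsc, a lysosomal protease, changed by 0.39 in mutants and 3.58 in WT, with the smallest adjusted p of the test (6.58e-06).

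Over the proximal tubule list the change was smaller in mutants by a median difference of -0.44, against 0.02 over all features. Of its 31 members 5 were called for a more negative change in mutants, Miox, G6pc, Slc5a10, Dpep1 and Kap, and none for a more positive one. Over all features 0.114% were called more negative. The list was written with earlier results of these data known, so this count is not independent evidence about the list. Members differed: Lrp2 changed by 2.98 in mutants and 3.01 in WT (adjusted p of the difference 0.98), Hnf4a by 1.52 and 1.53. The list medians were 2.08 in mutants and 2.90 in WT. At E17.5 the mean over the list was 8.85 to 9.02 in mutants and 9.78 to 9.99 in WT, and at E14.5 it was 6.82 to 6.90 in mutants and 6.34 to 7.55 in WT, array 34 being the highest WT array. In the loop of Henle the medians were 1.74 in mutants and 2.14 in WT (median difference -0.39), with 1 of 13 called, Ppp1r1a, and Umod differing by -1.36 without a call (adjusted p = 0.387). No gene of the intercalated cell list was called for a difference, and its median was 1.38 in mutants and 2.02 in WT. DNA replication genes fell by a median of 0.59 in mutants and 0.87 in WT with none called for a difference.

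Of the features that changed more positively in mutants, Bst1, a cell surface ADP-ribosyl cyclase, differed most. Bst1 read 7.24, 7.66 and 8.14 in E17.5 mutants and 4.71, 4.69 and 4.71 in E14.5 mutants, and it was detected on no WT array (5.15 to 5.36 at E17.5). The difference was 2.39 ± 0.24 (adjusted p = 0.00105), and at E17.5 the mutants were at least 4.53-fold above their E14.5 level. Bst1 passed the detection filter only through the E17.5 mutant arrays, so its place among the tested features depends on the group that makes the difference. Ldc1 read 8.47, 8.32 and 8.92 in E17.5 mutants and 4.61, 4.60 and 4.63 in E14.5 mutants, against 6.78, 6.51 and 7.08 in E17.5 WT kidneys and 4.67, 4.58 and 4.64 in E14.5 WT kidneys. Ly6f, a member of the Ly6 family of surface proteins, changed by 2.23 in mutants and 0.80 in WT, and Klrg2, a lectin-like receptor, by 1.44 and 0.31. With scaling by the median of detected probes neither was called (adjusted p = 0.116 for Ly6f), and the call for Klrg2 was also lost without E14.5 mutant array 65 or E14.5 WT array 58. Bst1, Ldc1, Ly6f and Klrg2 were detected on no E14.5 array of either genotype, so the sizes of their fitted changes depend on the background.

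**Figure D4:**
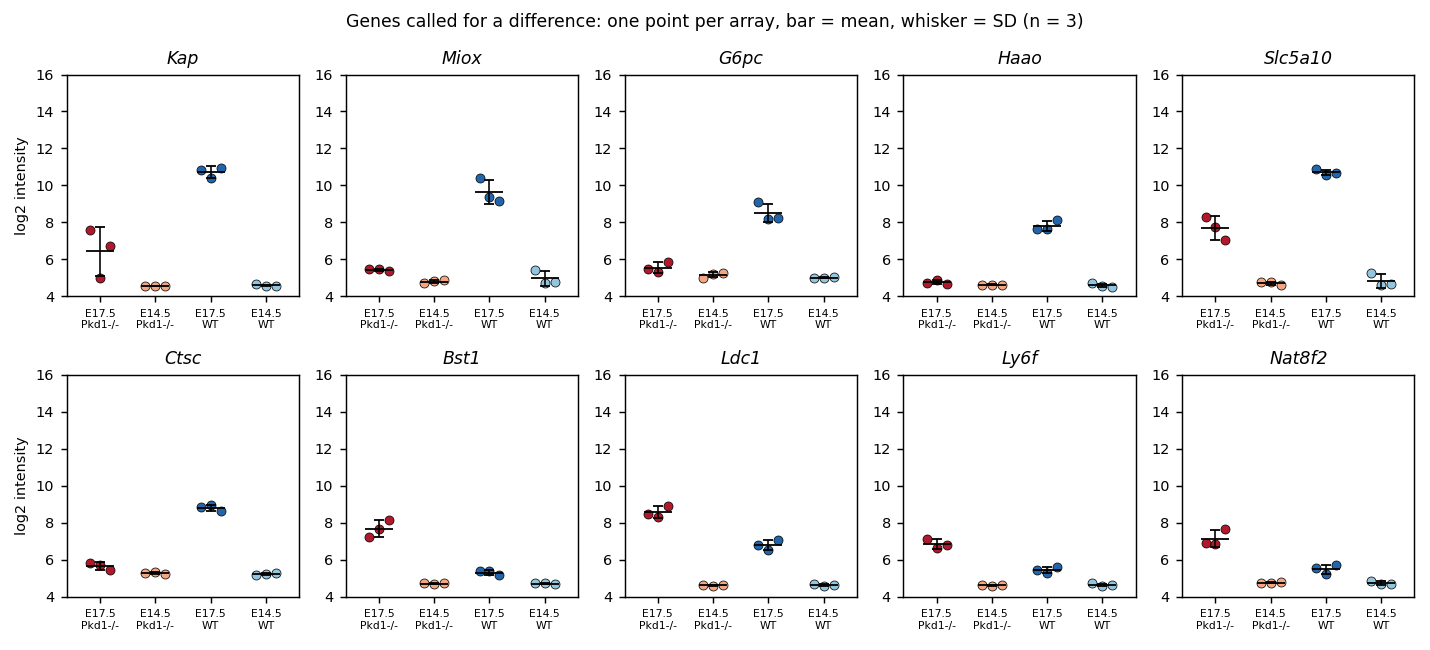
Log2 intensity (vertical axis, 4 to 16) of 10 genes called for a different change with age, in E17.5 and E14.5 Pkd1-/- kidneys and E17.5 and E14.5 WT kidneys (left to right), 1 point per array with mean and SD of 3. Kap, Miox, G6pc, Haao, Slc5a10 and Ctsc were highest in E17.5 WT kidneys, and Bst1, Ldc1, Ly6f and Nat8f2 in E17.5 Pkd1-/- kidneys.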

How the data were processed

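The authors scanned Illumina Mouse WG-6 version 2 BeadChips and deposited bead intensities that were background-subtracted but not normalized between arrays, each with a detection p-value. Their second deposited table, of normalized intensities, served as an alternative. In limma 3.58.1 (R 4.3.3) normexp correction drew on the detection p-values, 16 was added, and the intensities were put on one distribution by quantiles and on the log2 scale. Of 45281 probes, 21526 had a detection p under 0.05 on at least 3 of 12 arrays. Symbols came from the annotation table (34885 probes with 1 symbol, 18 with several, 10378 with none), and the brightest kept probe stood for a gene. One linear model over the 4 groups with empirical Bayes gave the contrasts, called at a Benjamini-Hochberg adjusted p under 0.05. Each group has 3 arrays, which limits the precision, and p-values rest on the spread between them. The scripts were tested on simulated data.

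The mutant comparison, the members and the 42 lists, which were written from general knowledge, were chosen with earlier results of these data known. Genes named by rule are the 20 top rises and falls without overlap, the 10 top differences each way, and leading called and uncalled members of the lists. Genes named outside it were chosen after their values were seen.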

Additional observations from a re-analysis of the deposited data

Results flagged for a closer look

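The change with age differed between Pkd1-/- and WT kidneys, by limma's test of the difference itself, in 26 features. Values below are the log2 change in mutants minus that in WT. They were negative for Kap (-4.27), Miox (-4.03), Ctsc (-3.19), G6pc (-3.10), Haao (-3.07), Slc5a10 (-2.88), Dpep1 (-2.43), Cdc42ep1 (-1.74), Tomm22 (-1.71), Upb1 (-1.50), Prss53 (-1.27), Krt14 (-1.17), Acsm5 (-1.08), Ppp1r1a (-0.92) and P2rx5 (-0.88), and for 2 probes without a symbol (-2.40 and -2.27). They were positive for Usp43 (0.96), B4galnt2 (1.13), Klrg2 (1.13), Ly6f (1.43), Nat8f2 (1.64), 1700016C15Rik (1.67), Ldc1 (1.80) and Bst1 (2.39), and for 1 probe without a symbol (1.69). The calls for Nat8f2 and B4galnt2 were lost in 16 and 15 of 23 alternatives, 10 of them each with 1 array left out, and that for Usp43 in 6. For Tomm22, part of the import channel of the outer mitochondrial membrane, the mean of its probes gave -0.58 (adjusted p = 0.204). Of the 26, 17 had a smaller change in mutants than in WT. Apart from Tomm22, Ppp1r1a, Usp43, Prss53 and the probe without a symbol at -2.40, the features were detected on no E14.5 array. The sizes of their fitted differences depend on the background. Bst1 and Klrg2 were detected on the E17.5 mutant arrays only. Haao, Cdc42ep1 and the probe without a symbol at -2.27 were detected on the E17.5 WT arrays only. Each of these passed the detection filter only through the group where it was high.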

How the results depend on the processing

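The counts of features called with age in mutants stayed within 1.5 times their value under every alternative run, at 5520 to 8518 called (5520 with probes detected on all 12 arrays, where fewer features were tested) and 868 to 1790 called by at least 2-fold. With 1 array left out there were 5058 to 6760 called, 2571 to 3386 higher, 2487 to 3374 lower and 1219 to 1432 by at least 2-fold. The count called for a difference between the genotypes depended on the setting. It was 26, and 14 without further background correction, 11 with the authors' normalized values, 44 with an offset of 50, 2 for probes detected on all 12 arrays, 332 with array weights, 1585 at an unadjusted p, and 18 to 39 with 1 array left out. The authors' values turned the difference for Dpep1 to 2.21 (adjusted p = 0.861) and for Upb1 to 0.0598 (adjusted p = 0.991). With those values the rise of Klk1 (adjusted p = 0.0920), Lcn2 (0.109), Pvalb (0.0867), Gsdmc3 (0.204) and Upk2 (0.254) and the falls of Hba-x (0.177), Hmga2 (0.521), Cdkn2d (0.059) and Rbl1 (0.0716) lost their calls. Hbb-bh1 lost its call with those values (0.440) and without further background correction (0.419). Of the 18 named differences followed, Kap, Miox, Slc5a10, Dpep1, Upb1, Nat8f2, Klrg2, B4galnt2 and 1700016C15Rik were not called without further background correction, and Haao and Usp43 also not with the authors' values. The mean over probes turned Acadl to 0.0243 and Ccng1 to -0.10. The ribosome list median was 0.0455 with cyclic loess and that of the adrenal and gonad list -0.00283 without a filter, and that list had no value with probes detected on all 12 arrays. The cause of these changes was not tested. Genes near background are limited by the signal over the negative controls. No paired analysis was possible because the labels name no litter, so the tests do not account for which embryos were littermates. A block for slides was not run since the files used here name none.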
